A study of Monodelphis domestica with 6 samples.

Results

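The genes described here are the integrins and laminins of Monodelphis domestica, a laboratory opossum, in skin fibroblasts and in the induced pluripotent stem cells made from them. These families, and the partner lists used below, were chosen with earlier results of these data known. Within the families, genes were taken by symbol from the deposited tables. The symbol had to name an integrin alpha chain, an integrin beta chain or a laminin alpha, beta or gamma chain. This gave 31 of 35665 genes. Of these, 19 encode integrins (12 alpha and 7 beta chains) and 12 encode laminins. Transcript levels in neonatal skin fibroblasts (neoSFs) were compared with those in the reprogrammed cells (monoiPSCs). The neoSF cultures were wild type, were untreated, came from the skin of 10-day-old female pups of the inbred strains FD2M1 and LSD1, and had been grown for 3 to 4 passages in serum medium. They gave 2 libraries, 1 per strain. The monoiPSCs were obtained from those cultures by nucleofection of OriP/EBNA episomal plasmids encoding human OCT4, SOX2, NANOG, KLF4, LIN28 and cMYC, and the plasmid set also carried a dominant-negative mouse p53. They were kept without feeder cells on Matrigel, in a medium with LIF, bFGF and the ROCK inhibitor Y27632. They gave 4 libraries: for each strain, 1 at passage 15 and 1 at passage 25. The study speaks of 2 lines and also of 4 clones, and whether both passages of a line share a clone is not stated. The p-values therefore measure the spread between these libraries, which come from 2 fibroblast cultures and 2 lines.

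Integrins are receptors of the cell surface, each made of an alpha and a beta chain, that bind extracellular matrix or other cells outside and the actin cytoskeleton inside. Laminins are trimers of an alpha, a beta and a gamma chain and form the main network of basement membranes, where integrins and dystroglycan bind them. Fibroblasts are known for integrins that hold collagen and fibronectin, and epithelial and pluripotent cells for integrins that hold laminin, and the Matrigel on which the monoiPSCs grew is itself rich in laminin.

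The total count was 14278794 and 16982978 in the neoSF libraries and 28684754 to 35564261 in the monoiPSC libraries. Levels are given as normalized read counts (NRC), the deposited count times the size factor of its library; 3 counts correspond to an NRC of 5.85 in the FD2M1 neoSFs, 4.75 in those of LSD1 and 1.55 to 1.88 in the reprogrammed libraries. Because NRC is not divided by transcript length, levels were compared between libraries and not between genes. The neoSF libraries were read in-house as single-end reads and the monoiPSC libraries by a sequencing service as paired-end reads, so that sequencing and cell type cannot be told apart in any difference between the groups. The labelled cell types carried their markers: all 9 measured fibroblast markers were called lower and all 8 pluripotency markers were called higher in the monoiPSCs by the test described next. In such bulk libraries, fewer cells of a type and less RNA per cell cannot be told apart.

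Reprogrammed cells differed from their fibroblasts in most integrin and laminin genes. The collagen receptor chains ITGA1, ITGA10 and ITGA11, the chains ITGA8, ITGAV, ITGB5 and ITGB8, the shared chain ITGB1, ITGA9, and the laminins LAMA2, LAMA4, LAMB1 and LAMB2 fell, while ITGA2, ITGA2B, ITGA4, ITGA6, LAMA1, LAMA5 and LAMC3 rose. A gene was tested if its NRC was at least 20 in both neoSF or in all 4 monoiPSC libraries, and counted as differentially expressed (DE) where edgeR's quasi-likelihood test gave a p of 0.05 or less after Benjamini-Hochberg adjustment and the levels differed 2-fold or more. SE is the standard error on the log2 scale, from 2 neoSF against 4 monoiPSC libraries. The filter passed 28 of the 31 members and left out ITGB6, LAMB3 and LAMB4. Of the 28, 20 (71.4%) were DE, against 45.9% of the 13072 genes tested. The 7 higher members were near the background share of 24.3%, and the 13 lower members exceeded the background share of 21.6%. The median log2 fold change, monoiPSC minus neoSF, was -0.90 over the members and 0.08 over all genes tested, and its median size without the sign was 2.62 and 0.95, respectively. The libraries of both groups did not overlap in 24 members (85.7%), against 73.2% of all genes tested. The 9 higher ones were near the 36.1% share of all genes, and the 15 lower ones exceeded the 37.1% share of all genes. Some of these separations were narrow. The nearest neoSF and monoiPSC libraries had an NRC of 20.9 and 21.7 for ITGAL and 30.8 and 31.8 for ITGA2B. They had 74.3 and 76.8 for ITGB4 and 39.99 and 39.2 for ITGB3. LAMC1 was the only member that passed the p threshold while changing by less than 2-fold.

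**Figure D1:**
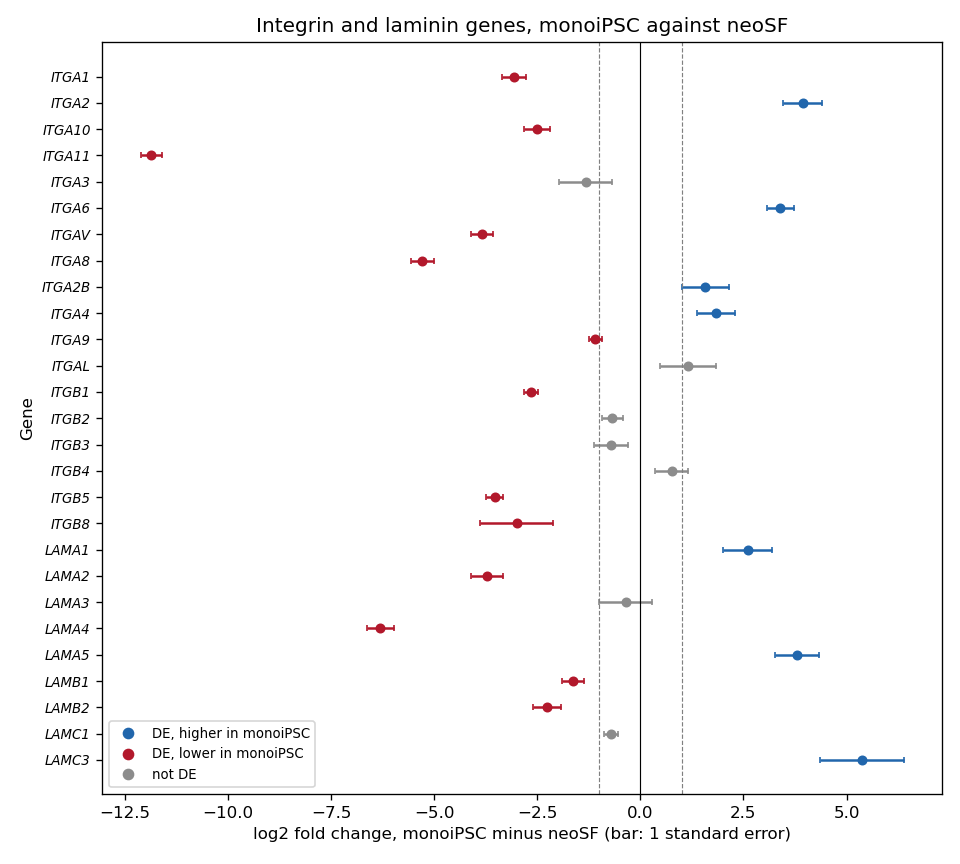
Log2 fold change of tested integrin and laminin genes, monoiPSC minus neoSF (horizontal axis; bars are 1 standard error; dashed lines mark a 2-fold change), with DE genes in colour. ITGA11 lies farthest to the left at -11.87 and LAMC3 farthest to the right at 5.37.

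Among the alpha chains that bind collagen with ITGB1, ITGA1, ITGA10 and ITGA11 were lower and ITGA2 was higher in the monoiPSCs. ITGA11 (gene 100025947, chromosome 1 of MonDom5), the fibrillar collagen receptor of fibroblasts, had an NRC of 23761 in FD2M1 and 16992 in LSD1 neoSFs, and of 4.49 and 6.28 in the FD2M1 and 4.13 and 5.02 in the LSD1 monoiPSCs at passages 15 and 25. These monoiPSC levels rest on 7.86 to 10.0 counts, and the log2 fold change, -11.87, had an SE of 0.26 and an adjusted p of 3.14e-06. ITGA10 (gene 100014893, chromosome 2), a collagen receptor best known from cartilage, had an NRC of 1361 and 1122 in the FD2M1 and LSD1 neoSFs, 138 and 213 in the FD2M1 monoiPSCs and 164 and 302 in the LSD1 monoiPSCs. Both lines were higher at passage 25 than at passage 15, and both stayed far below the fibroblasts (log2 fold change -2.51, SE 0.30, adjusted p = 0.000394). ITGA1 (gene 100031492, chromosome 3), which prefers the network collagens of basement membranes, had an NRC of 221 and 187 in the neoSFs and of 20.2 to 26.4 in the 4 monoiPSC libraries (log2 fold change -3.06, SE 0.29, adjusted p = 0.000137).

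ITGA2 (gene 100031498, chromosome 3), which binds collagens and in some cells laminin, moved against the other collagen receptor chains. Its NRC was 17.9 in FD2M1 and 10.8 in LSD1 neoSFs, 146 and 251 in the FD2M1 line and 158 and 261 in the LSD1 line at passages 15 and 25. No monoiPSC library reached down to the fibroblast levels (log2 fold change 3.94, SE 0.47, adjusted p = 0.000366). Those fibroblast levels rest on 9.17 and 6.83 counts. ITGA1 and ITGA2 are neighbours on their chromosome with no protein-coding gene between them in the RefSeq annotation of the assembly mMonDom1.pri, and changed in opposite directions.

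Of the analysed alpha chains that recognise the RGD motif of fibronectin, vitronectin and other ligands, ITGAV and ITGA8 were lower in the monoiPSCs and ITGA2B was higher. They do not include ITGA5, which was not analysed here. ITGAV (gene 100028127, chromosome 4), which pairs with several beta chains, had an NRC of 22399.5 and 18027 in the FD2M1 and LSD1 neoSFs, 1718 and 1249 in the FD2M1 line and 1425 and 854 in the LSD1 line. The log2 fold change, -3.85, had an SE of 0.27 and an adjusted p of 4.06e-05. ITGA8 (gene 100027090, chromosome 8), the nephronectin receptor chain, had an NRC of 5775 and 8424 in the neoSFs, 173 and 223 in the FD2M1 and 116 and 166 in the LSD1 monoiPSCs, with no overlap (log2 fold change -5.29, SE 0.28, adjusted p = 1.6e-05). ITGA2B (gene 100023354, chromosome 2), known as the platelet fibrinogen receptor chain, had an NRC of 29.8 and 30.8 in the neoSFs and ranged from 31.8 in the FD2M1 monoiPSCs at passage 15 to 112 in the LSD1 monoiPSCs at passage 25. Its rise of 1.58 on the log2 scale (SE 0.57, adjusted p = 0.0444) was called, but the adjusted p exceeded the threshold without the FD2M1 neoSF (0.142), LSD1 neoSF (0.138), LSD1 passage 15 (0.0907), FD2M1 passage 25 (0.0802) or LSD1 passage 25 (0.0874) library. Only 2 of the 7 listed megakaryocyte markers were measured, of which GP9 was at 0 in all 6 libraries, and the NRC of the other, GP1BA, was 22.0 and 20.9 in the neoSFs and 54.5 to 95.3 in the monoiPSCs; the part of such cells in the level of ITGA2B was not tested.

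Of the analysed alpha chains that bind laminin, ITGA6 was higher in the monoiPSCs and ITGA3 was not called. ITGA7 was not analysed here. ITGA6 (gene 100018376, chromosome 4), which pairs with ITGB1 and ITGB4, had an NRC of 229 and 119.7 in the FD2M1 and LSD1 neoSFs, 1384 and 1523 in the FD2M1 line and 2125 and 1785 in the LSD1 line. The lowest monoiPSC library was thus well above the highest neoSF library (log2 fold change 3.39, SE 0.33, adjusted p = 0.000154). ITGA3 (gene 100022489, chromosome 2) had an NRC of 333 and 1023 in the neoSFs, 114 and 188 in the FD2M1 line and 193 and 522 in the LSD1 line. The groups overlapped because the LSD1 monoiPSCs at passage 25 exceeded the FD2M1 neoSFs, although in each strain both monoiPSC libraries lay below the fibroblasts of that strain. The log2 fold change, -1.33, had an SE of 0.64 and an adjusted p of 0.106. With strain as a block, which pairs each line with its own fibroblasts, it was -1.25 with an adjusted p of 0.0381, and ITGA3 was then called. It was also called without the FD2M1 neoSF library (-1.92, adjusted p = 0.0472) and without the LSD1 passage 25 library (-1.96, adjusted p = 0.0141), whereas it was -0.29 without the LSD1 neoSF library.

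The closely related chains ITGA4 and ITGA9, which bind VCAM1, fibronectin and tenascin, went in opposite directions. ITGA9 is the symbol in the deposited data, and the RefSeq annotation of mMonDom1.pri names this gene LOC100019816. ITGA4 (gene 100027449, chromosome 4) had an NRC of 308 in FD2M1 and 655 in LSD1 neoSFs, 1494 and 1411 in the FD2M1 line and 2561 and 1011 in the LSD1 line. On the log2 scale it rose by 1.84 (SE 0.46, adjusted p = 0.00988), with 1.40 after omission of the FD2M1 neoSF library, where it was no longer called (adjusted p = 0.0556), and 2.496 after omission of the LSD1 neoSFs. ITGA9 (gene 100019816, chromosome 6) had an NRC of 2845 and 2638 in the neoSFs and of 1022 to 1391 in the monoiPSCs, so that every monoiPSC library lay below both neoSF libraries (log2 fold change -1.10, SE 0.15, adjusted p = 0.000737). The leukocyte chain ITGAL (gene 100017790, chromosome 6) stayed near the filter. Its NRC was 20.9 and 3.70 in the neoSFs and 21.7 to 30.4 in the monoiPSCs, and it was not called (log2 fold change 1.15, adjusted p = 0.172) except without the FD2M1 neoSF library (3.03, adjusted p = 0.0198), while it was 0.31 without the LSD1 neoSF library.

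Of the 6 tested beta chains, ITGB1, ITGB5 and ITGB8 were lower and ITGB2, ITGB3 and ITGB4 were not called. ITGB1 (gene 100018342, chromosome 8), the common partner of the collagen, laminin and many fibronectin receptor chains, had an NRC of 115477 in FD2M1 and 115963 in LSD1 neoSFs, 15429.9 and 19546 in the FD2M1 line and 15754 and 18320.4 in the LSD1 line. It was 6.28-fold lower in the monoiPSCs (log2 fold change -2.65, SE 0.17, adjusted p = 3.18e-05), and the spread among the 4 monoiPSC libraries reached 1.27-fold. ITGB5 (gene 100020074, chromosome 4), a vitronectin receptor chain that pairs with ITGAV, had an NRC of 8218 and 6079 in the neoSFs, 579.9 and 652 in the FD2M1 line and 439 and 638 in the LSD1 line (log2 fold change -3.53, SE 0.20, adjusted p = 2.14e-05).

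ITGB8 (gene 100018731, chromosome 8), an ITGAV partner that takes part in the activation of TGF-beta, was high in a single library. Its NRC was 318 in FD2M1 and 32.5 in LSD1 neoSFs, 31.4 and 32.5 in the FD2M1 line and 8.41 and 9.27 in the LSD1 line. The LSD1 neoSFs were thus level with the FD2M1 monoiPSCs, although each line lay below its own fibroblasts. ITGB8 was 7.99-fold lower in the monoiPSCs (SE 0.89 on the log2 scale, adjusted p = 0.0204), and its log2 fold change became -0.62 (adjusted p = 0.599) without the FD2M1 neoSF library, -3.86 (adjusted p = 0.0047) without the LSD1 neoSF library and -2.74 (adjusted p = 0.0527) without the LSD1 passage 15 library. ITGB6 (gene 100022034, chromosome 4), an epithelial partner of ITGAV, was below the filter, with an NRC of 8.45 and 6.07 in the neoSFs and of 3.37 to 56.4 in the monoiPSCs.

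The leukocyte beta chain ITGB2 (gene 100024596, chromosome 2) had an NRC of 335 and 242 in the neoSFs and of 145 to 203 in the monoiPSCs, and missed the p threshold (log2 fold change -0.68, SE 0.26, adjusted p = 0.0538). The 10 leukocyte markers summed to an NRC of 358 and 372 in the neoSFs and of 539 to 783 in the monoiPSCs, with the pan-leukocyte marker PTPRC at 3.90 and 6.86 in the neoSFs and at most 5.02 in the monoiPSCs. These markers went in opposite directions: most of the sum was CORO1A, called higher with 213 and 181 in the neoSFs and 412 to 658 in the monoiPSCs, whereas CSF1R was called lower, with 71.2 and 77.9 against 5.44 to 10.4. ITGB3 (gene 100025359, chromosome 2), the beta chain of the platelet receptor and an ITGAV partner, had an NRC of 77.9 and 39.99 in the neoSFs and of 25.1 to 39.2 in the monoiPSCs (log2 fold change -0.71, SE 0.41, adjusted p = 0.161). ITGB4 (gene 100027264, chromosome 2), the hemidesmosomal partner of ITGA6, had an NRC of 74.3 and 34.4 in the neoSFs and of 76.8 to 106 in the monoiPSCs. It was not called (log2 fold change 0.76, SE 0.40, adjusted p = 0.134) except without the FD2M1 neoSF library (1.39, adjusted p = 0.0415).

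**Figure D2:**
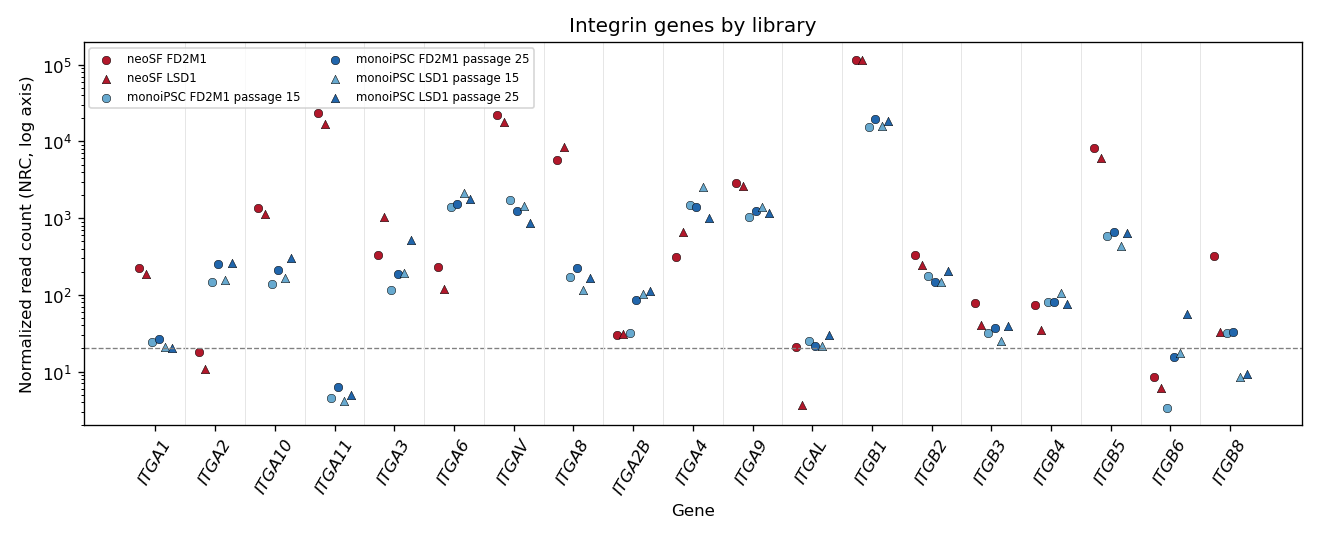
Normalized read count (NRC, log axis) of the 19 integrin genes in each of the 6 libraries (red, neoSF; light blue, monoiPSC passage 15; dark blue, monoiPSC passage 25; circles, FD2M1; triangles, LSD1; dashed line, the filter of 20). The red points lie above all blue points for ITGA1, ITGA10, ITGA11, ITGA8, ITGA9, ITGAV, ITGB1, ITGB2, ITGB3 and ITGB5 and below them for ITGA2, ITGA2B, ITGA4, ITGA6, ITGAL and ITGB4.

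The alpha chain determines which receptors a laminin trimer binds, and here LAMA2 and LAMA4 fell while LAMA1 and LAMA5 rose. LAMA4 (gene 100029499, chromosome 2), the alpha chain of mesenchymal and vascular laminins, had an NRC of 6210.0 in FD2M1 and 7227 in LSD1 neoSFs, 42.1 and 99.1 in the FD2M1 line and 79.9 and 95.8 in the LSD1 line. This was the laminin with the lowest log2 fold change, -6.31 (SE 0.33, adjusted p = 1.57e-05). LAMA2 (gene 100030895, chromosome 2), the alpha chain of muscle and nerve basement membranes, had an NRC of 2648 and 1449 in the neoSFs, 219 and 86.8 in the FD2M1 line and 156 and 116 in the LSD1 line (log2 fold change -3.73, SE 0.39, adjusted p = 0.000195). For both genes every monoiPSC library lay below both neoSF libraries.

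LAMA5 (gene 100026192, chromosome 1), the alpha chain of most mature epithelial basement membranes, had an NRC of 240 and 396 in the FD2M1 and LSD1 neoSFs, 1884 and 4187 in the FD2M1 line and 4295 and 6354 in the LSD1 line. It was higher by 3.81 on the log2 scale (SE 0.54, adjusted p = 0.000762), in all 4 monoiPSC libraries. LAMA1 (gene 100015923, chromosome 3), the alpha chain of the first embryonic basement membranes, had an NRC of 69.8 in FD2M1 and 368 in LSD1 neoSFs, 1445 and 1464 in the FD2M1 line and 1195 and 935 in the LSD1 line. The monoiPSCs were above both fibroblast cultures, and the cultures themselves differed 5.28-fold. On the log2 scale it rose by 2.60 (SE 0.60, adjusted p = 0.0073), with 1.86 without the FD2M1 and 4.27 without the LSD1 neoSF library, called in both cases. LAMA3 (gene 100011544, chromosome 3), an epithelial chain, overlapped between the groups, with an NRC of 126 and 59.1 in the neoSFs and of 23.6 to 124 in the monoiPSCs. It was not called (log2 fold change -0.36, SE 0.64, adjusted p = 0.645), and the value was 0.27 without the FD2M1 neoSF library.

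Both tested laminin beta chains fell. LAMB1 (gene 100010605, chromosome 8), the widespread beta chain, had an NRC of 14308 in FD2M1 and 19217 in LSD1 neoSFs, 3725 and 6481 in the FD2M1 line and 3882 and 6199 in the LSD1 line (log2 fold change -1.63, SE 0.27, adjusted p = 0.00168). The lines differed 1.04-fold at passage 15, and both were higher at passage 25, still below the fibroblasts. LAMB2 (gene 100027514, chromosome 6), the beta chain of neuromuscular and kidney basement membranes, had an NRC of 2687 and 2914 in the neoSFs, 308 and 434 in the FD2M1 line and 693 and 747 in the LSD1 line (log2 fold change -2.26, SE 0.33, adjusted p = 0.000905). LAMB3 (gene 100021649, chromosome 2), the partner of LAMA3 in epithelial anchoring, and LAMB4 (gene 100010505, chromosome 8) were below the filter. LAMB3 had an NRC of 9.43 and 19.3 in the neoSFs and of 19.1 to 59.9 in the monoiPSCs, and LAMB4 had 0.63 and 2.33 counts in the neoSFs and 2.00 to 6.00 in the monoiPSCs, too few for a fold.

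LAMC1 (gene 100023945, chromosome 2), the gamma chain of most laminin trimers, had an NRC of 14876 and 13403 in the FD2M1 and LSD1 neoSFs, 6968 and 9296 in the FD2M1 line and 8852 and 7357 in the LSD1 line. No library overlapped, but the fall (log2 fold change -0.70, SE 0.17, adjusted p = 0.00915) stayed under 2-fold. LAMC3 (gene 100015877, chromosome 1) is a gamma chain of limited tissue range. Its NRC was 30.4 and 3.96 in the neoSFs, 227 and 408 in the FD2M1 line and 796 and 1109 in the LSD1 line. Its neoSF levels rest on 15.6 and 2.50 counts. It was the member with the highest log2 fold change (5.37, SE 1.02, adjusted p = 0.00294), and the value was 7.70 when the FD2M1 neoSFs were left out and 4.44 when those of LSD1 were, called in both cases.

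Against the fibroblasts of its own strain, each monoiPSC library had the same sign of change in 26 of the 28 tested members. The share over all genes was not computed. Groups that do not overlap, as in 73.2% of all genes tested, have 1 sign in all 4 libraries by construction. Signs were mixed for LAMA3, with log2 differences in NRC of -2.42 and -0.96 in FD2M1 and -0.11 and 1.07 in LSD1 at passages 15 and 25.

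**Figure D3:**
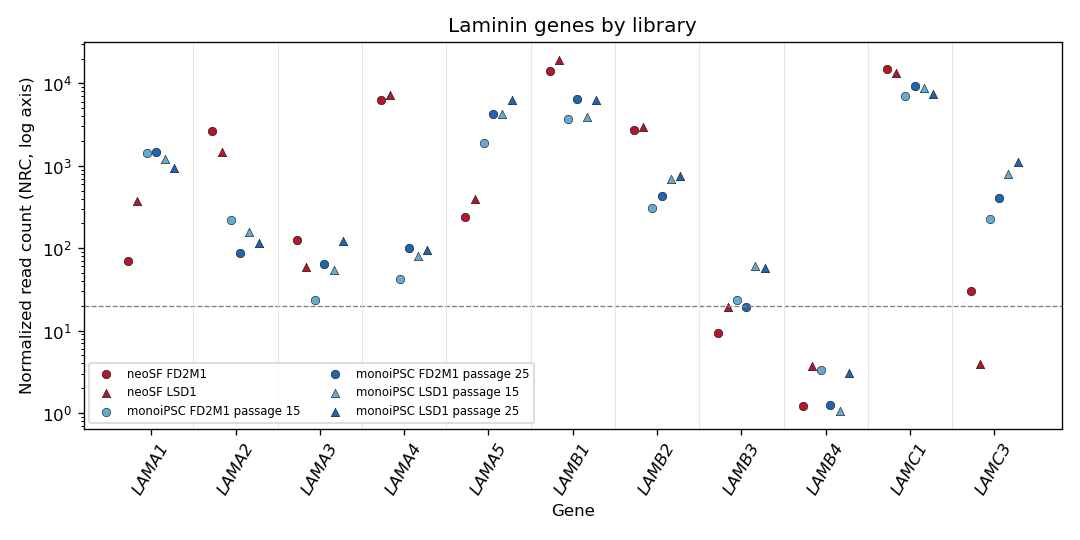
Normalized read count (NRC, log axis) of laminin genes in each of the 6 libraries, with symbols as for the integrins and the filter of 20 as a dashed line. LAMA2, LAMA4, LAMB1, LAMB2 and LAMC1 are lower in all monoiPSC libraries, and LAMA1, LAMA5 and LAMC3 are higher in all.

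The 4 monoiPSC libraries were also compared with each other, by passage with strain as covariate and by strain with passage as covariate, in 12252 genes whose NRC reached 20 in all 4. ITGA11, ITGB6, ITGB8, LAMB3 and LAMB4 did not pass, which left 26 members, with 1 library for each line and passage. Between passage 25 and passage 15, 0 members were called by edgeR and 0.0% of all genes, while 9 members and 9.35% of all genes had an unadjusted p under 0.05. LAMB1 had the lowest unadjusted p, with a log2 difference of 0.72, passage 25 minus passage 15 (SE 0.14, adjusted p = 0.268). The passages did not overlap in 11 of the 26 members (42.3%), against 33.9% of all genes tested, and 8 were higher at passage 25, against 17.8%. DESeq2 called 0 members and 0.977% of the genes to which it gave an adjusted p; LAMA5 (0.85, adjusted p = 0.0213) and LAMB1 (0.73, adjusted p = 0.0318) passed its p threshold but not the 2-fold limit.

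Between the LSD1 and the FD2M1 line, 0 members and 0.0% of all genes were called by edgeR, while 8 members and 14.2% of all genes had an unadjusted p under 0.05. The lowest was that of LAMC3, which was higher in the LSD1 line by 1.63 on the log2 scale (SE 0.20, adjusted p = 0.130). DESeq2 called 2 members, and 1.66% of the genes to which it gave an adjusted p, among them LAMC3 with a log2 difference of 1.63 (adjusted p = 2.8e-06). LAMA5 (0.90, adjusted p = 0.00609) and LAMB2 (0.98, adjusted p = 0.0341) passed its p threshold but not the 2-fold limit. In the NRC values, LAMC3 was 3.51-fold higher in the LSD1 line at passage 15 and 2.72-fold at passage 25. The lines did not overlap in 10 of the 26 members (38.5%), against 43.5% of all genes tested, and 7 were higher in the LSD1 line, against 20.9%. Each strain gave 1 line, so the strain and the line cannot be told apart.

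Markers of other cell types were measured in the same libraries. The 6 measured of 8 muscle markers summed to an NRC of 2845 and 1727 in the FD2M1 line and 5757 and 11336 in the LSD1 line at passages 15 and 25, against 1384 and 374 in the neoSFs. Much of this sum was MYOG, with 1527 and 985 in the FD2M1 line and 4135 and 5549 in the LSD1 line, whereas MYOD1 had 103 and 35.1 in the FD2M1 line and 99.4 and 591 in the LSD1 line, and MYF5 was under 10 in every library. The 8 measured of 9 melanocyte and Schwann cell markers summed to 6776 and 5248 in the FD2M1 line and 16504 and 9168 in the LSD1 line, against 268 and 457 in the neoSFs. This sum was carried by DCT, with 5608 and 4372 in the FD2M1 line and 15279 and 7858 in the LSD1 line, while TYR, TYRP1 and MLANA were between 0 and 18.2 in the monoiPSCs and CDH19 and MITF were lower in the LSD1 than in the FD2M1 line at passage 15. MYOG, DES, CDH15 and DCT were thus higher in the LSD1 line at each passage, as was LAMC3, while MYOD1, MYF5, MITF and CDH19 were not at passage 15, and the part of such cells in the level of LAMC3 was not tested. The 6 measured of 9 keratinocyte markers summed to 498 in the FD2M1 and 2025 in the LSD1 neoSFs, against 385 to 730 in the monoiPSCs, most of it PERP. The 8 endothelial markers summed to 236 to 301 in the neoSFs and 502 to 736 in the monoiPSCs. TIE1 alone made the higher sum in the monoiPSCs (333 to 583, against 1.95 and 0 in the neoSFs), while VWF was called lower and ERG was at 0 in all 4 monoiPSC libraries.

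Whether a member changed by another amount in LSD1 than in FD2M1 was tested as the interaction of strain and cell type. Each strain had 1 neoSF library, so the 2 passages of each line gave the only residual. The p-values of this interaction therefore do not measure the spread between fibroblast cultures. The test called 0 members and 0.0841% of all genes, while 4 members and 9.13% of all genes had an unadjusted p under 0.05. The lowest was that of LAMA1, whose log2 change was smaller in LSD1 than in FD2M1 (interaction -2.86 on the log2 scale, SE 0.38, adjusted p = 0.139). In log2 NRC, LAMA1 differed from its own fibroblasts by 4.37 and 4.39 in the FD2M1 line and by 1.70 and 1.34 in the LSD1 line at passages 15 and 25. DESeq2 called LAMA1 (-2.84, adjusted p = 1.52e-05) and LAMC3 (4.89, adjusted p = 0.0106), and 2.33% of all genes. LAMC3, picked after its values were seen, differed from its own fibroblasts by 2.90 and 3.75 in the FD2M1 line and by 7.65 and 8.13 in the LSD1 line, where the LSD1 fibroblast level was under 3 counts.

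In 7 of the 28 tested members (25.0%) the LSD1 libraries were all higher, or all lower, than the FD2M1 libraries within both the fibroblasts and the monoiPSCs, against 25.1% of all genes tested. They include ITGA2B, ITGA3, LAMA5 and LAMB2, which were higher in LSD1, and ITGA1 and ITGB8, which were lower. ITGA3 was 3.07-fold higher in LSD1 fibroblasts and 1.69-fold and 2.78-fold higher in LSD1 monoiPSCs at passages 15 and 25. A fit of strain over all 6 libraries with cell type as covariate, added after the data were seen, called 0 members and 0.0% of all genes, while 5 members and 9.63% of all genes had an unadjusted p under 0.05. The lowest of these was that of ITGB8, which was lower in LSD1 (log2 difference -2.33, adjusted p = 0.430).

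**Figure D4:**
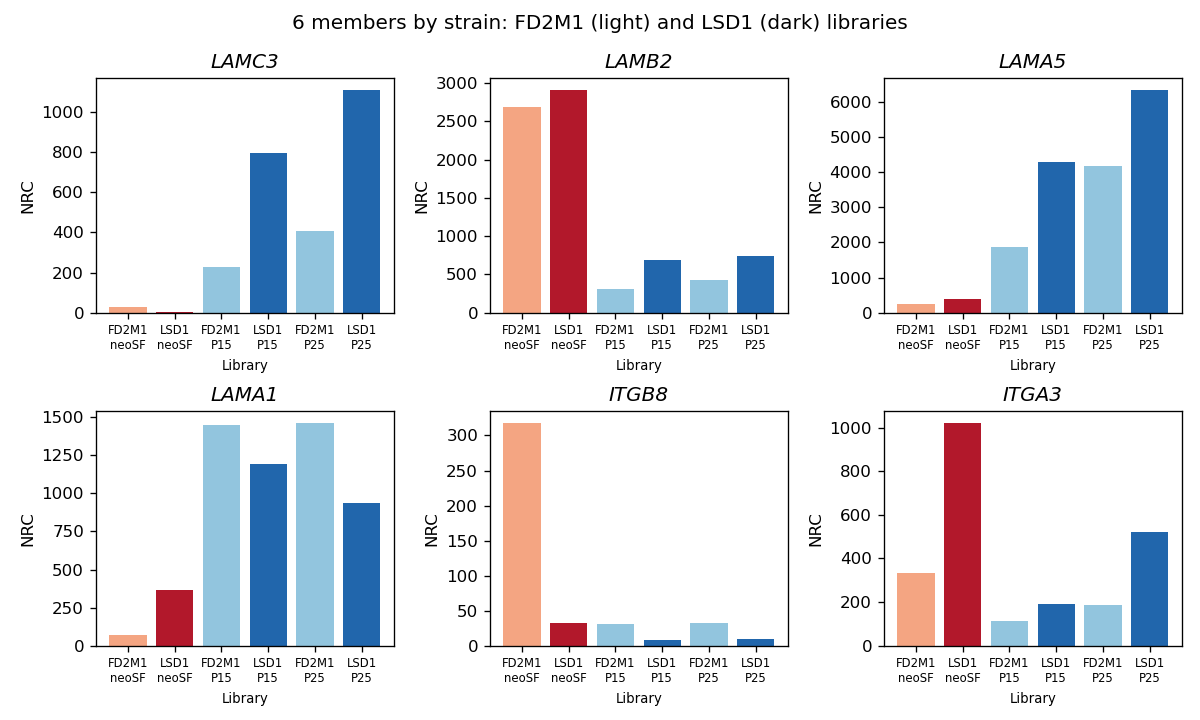
Normalized read count (NRC, linear axes from 0) of 6 members in each library, FD2M1 in light and LSD1 in dark colours, neoSF in red and monoiPSC in blue at passage 15 (P15) and 25 (P25). LAMC3 reaches 796 and 1109 in the LSD1 monoiPSCs against 227 and 408 in the FD2M1 monoiPSCs, and ITGB8 stands at 318 in the FD2M1 neoSFs alone.

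The proteins that integrins and laminins work with were followed in 4 lists. Of the 28 tested adaptors, which bind integrin tails or build focal adhesions, 17 fell and 4 rose (75.0% DE, against 45.9% of all genes), with a median log2 fold change of -1.62. Talin 1 (TLN1), which activates integrins, fell by 2.03 on the log2 scale (SE 0.21, adjusted p = 0.000177), and vinculin (VCL), which ties talin to actin, fell by 3.07 (SE 0.15, adjusted p = 1.42e-05). The adaptors with the lowest log2 fold changes were TNS1 (-5.80), a tensin of mature adhesions, LIMS2 (-5.76), a partner of integrin-linked kinase, and KANK2 (-3.51), a talin-binding protein. Those with the highest were PARVG (3.98), the parvin of blood cells, FERMT1 (1.49), the epithelial kindlin, and ITGB1BP1 (1.22), a binder of the ITGB1 tail. PTK2, which also rose (1.02), lay near the 2-fold limit. Its log2 fold change ranged from 0.92 to 1.12 across the 13 settings, and it was not called in all of them. FERMT1 had an NRC of 25.0 and 11.6 in the neoSFs and of 35.9 to 57.2 in the monoiPSCs, and its call was lost without the LSD1 neoSF library (1.00, adjusted p = 0.184), the FD2M1 passage 25 library (1.39, adjusted p = 0.0721) or the LSD1 passage 25 library (1.37, adjusted p = 0.0617), while it was 2.17 without the FD2M1 neoSF library. TNS1 was -5.13 without the LSD1 neoSF library and PARVG 4.596 without the FD2M1 neoSF library.

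Basement membrane partners of laminin changed in both directions. Of 19 tested, 8 fell and 4 rose (63.2% DE, against 45.9% of all genes). The 4 that rose were near the 24.3% called higher among all genes. The 8 that fell exceeded the 21.6% called lower. Over the 19, the median change on the log2 scale was -0.73. Perlecan (HSPG2), which binds laminin and growth factors, had an NRC of 51064 and 48153 in the neoSFs and of 1935 to 2847 in the monoiPSCs (log2 fold change -4.18). SMOC2 (-6.39) and COL15A1 (-5.60) were the other partners with the lowest values, and SMOC2 was -5.59 without the FD2M1 neoSF library. FREM1, a protein that anchors embryonic epithelia, had an NRC of 9.10 and 3.17 in the neoSFs and of 2024 to 4327 in the monoiPSCs (log2 fold change 9.20, SE 0.57, adjusted p = 2.82e-05), with 10.14 without the FD2M1 and 8.56 without the LSD1 neoSF library. FREM2 (4.20), its partner in the same complex, and FBLN1 (3.94), which binds laminin and nidogen, also rose. The neoSF levels rest on 4.67 and 2.00 counts for FREM1 and on 5.00 and 8.44 for FREM2. The nidogens NID1 and NID2, which link laminin to type IV collagen, were not called, with log2 fold changes of -0.73 and 0.23.

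The integrin ligands other than laminins had the lowest median of the lists, -5.38. Of 23 tested, 19 fell and 1 rose (87.0% DE, against 45.9% of all genes). SPP1 (osteopontin) had a log2 fold change of -9.89, COL1A1 (type I collagen) of -9.36 and POSTN (periostin) of -8.64. Fibronectin (FN1), the main ligand of several RGD-binding integrins, had an NRC of 488640 and 880512 in the neoSFs and of 3052 to 4165 in the monoiPSCs (log2 fold change -7.40, SE 0.32, adjusted p = 9.69e-06). The single ligand that rose was E-cadherin (CDH1), an epithelial adhesion molecule, with an NRC of 1.95 and 19.3 in the neoSFs and of 1476 to 2889 in the monoiPSCs (log2 fold change 7.64, SE 0.63, adjusted p = 7.64e-05). Without the FD2M1 neoSF library, the values were -7.68 for SPP1, -6.95 for POSTN and 6.87 for CDH1; when the LSD1 neoSFs were left out they were -10.72, -9.39 and 10.11; POSTN was -9.26 without the FD2M1 passage 15 library. The neoSF levels of CDH1 rest on 1.00 and 12.2 counts. Of the ligands that fell, COL1A1 and COL3A1 are also on the fibroblast and VWF on the endothelial marker list.

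Of 12 tested tetraspanins, other lateral partners and hemidesmosome linkers, 3 fell and 2 rose (41.7% DE), near the 45.9% of all genes. PLAUR (-5.64), the urokinase receptor, PLEC (-3.67), which links ITGB4 to intermediate filaments, and SDC4 (-2.40), a co-receptor for fibronectin, fell; SDC4 was -1.63 without the FD2M1 neoSF library. CD37 (4.43), a leukocyte tetraspanin, and COL17A1 (1.12), the hemidesmosomal collagen, rose; CD37 was 5.05 and COL17A1 0.76 without the FD2M1 neoSF library, where COL17A1 was no longer called (adjusted p = 0.0546).

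**Figure D5:**
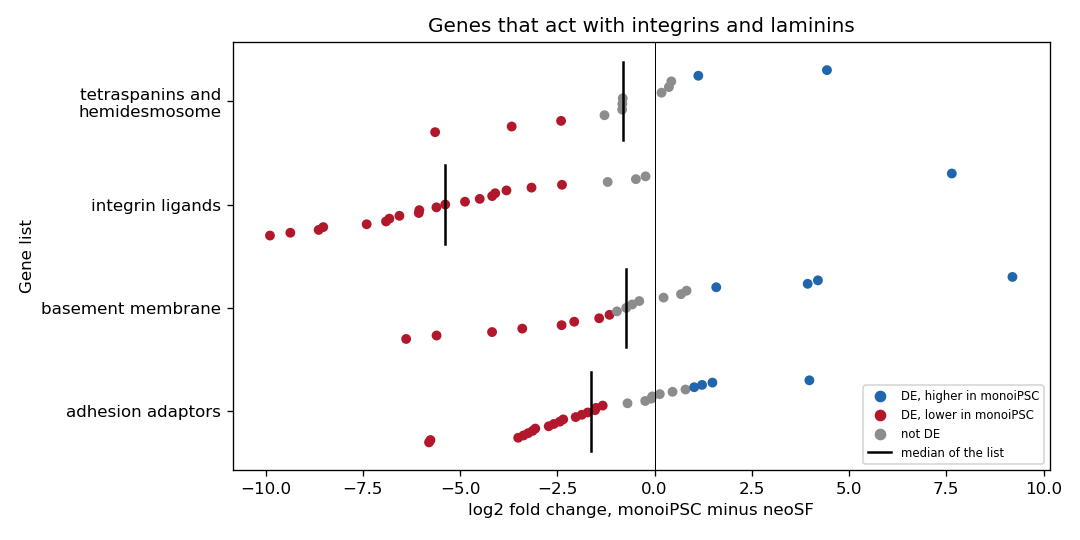
Log2 fold change, monoiPSC minus neoSF, of each tested gene in the 4 partner lists (1 point per gene; vertical bars are list medians), with DE genes in colour. The integrin ligands lie mostly left of 0 with CDH1 alone to the right, and FREM1 is the point farthest to the right.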

How the data were processed

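RNA of 2 neoSF and 4 monoiPSC cultures was sequenced. With StrandNGS, the authors aligned reads to MonDom5 and assigned them to RefSeq transcripts. They deposited 2 tables of 35665 genes. In the table the authors deposited as raw counts, 85.3% of the values above 0 were not whole (tolerance 0.001), so these were treated as estimated counts and rounded. The second holds the authors' log2 values after DESeq normalization, which equal the log2 of the count times 1 size factor per library; the NRC was computed from this factor. Whether the counting used strand, and whether both mates of a pair were counted, is not given in the sources used here.

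DE genes were called with edgeR 4.0.16 (R 4.3.3, TMM scaling, quasi-likelihood test) on genes whose NRC reached 20 in both neoSF libraries or in the 4 monoiPSC libraries, with the thresholds of the study's methods (adjusted p of 0.05 or less by Benjamini-Hochberg, 2-fold or more). DESeq2 1.42.0 and limma 3.58.1 were alternatives, beside RLE scaling, other filters, a strain block and leaving out each library. The standard error is the log2 fold change divided by the square root of F. The scripts were tested on simulated counts. Depth was 14278794 to 35564261 counts per library, and floors of 3 counts cover counting error only.

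The members and lists were chosen with earlier results of these data known. Per-library values are given for DE members whose mean NRC reached 100 in the higher group; other members are given by level or range, and of each list up to 3 DE genes at either end of the log2 fold change are named. TLN1, VCL, PTK2, FN1, NID1 and NID2 were named outside this rule, after their values were seen. Strain pairs the libraries, since each line was made from the neoSF culture of its strain; deviations from the group means correlated at r = 0.04 and 0.01 for the FD2M1 line and 0.08 and -0.02 for the LSD1 line. Of the members, 30 carried the same symbol in the RefSeq table of mMonDom1.pri, which served only for names and gene order. The exception was ITGA9, named LOC100019816 there. The integrin genes ITGA5, ITGA7 and ITGB7 were not analysed here. LOC100016762, named ITGAD in the RefSeq annotation of mMonDom1.pri, did not match by its deposited symbol. It was also left out, with 0 to 6 counts per library. The values of 1 member are not reported here, although the counts over the members include it.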

Additional observations from a re-analysis of the deposited data

Results flagged for a closer look

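Of 48 groups of 4 monoiPSC libraries examined for a library far from the other 3, 2 stood out, where chance alone gives about 1 in 20. The NRC of ITGB4 was 106 in the LSD1 monoiPSCs at passage 15, against 76.8 to 81.3 in the others. The NRC of HSPG2 was 1935 in the FD2M1 monoiPSCs at passage 15, against 2717 to 2847 in the others.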

How the results depend on the processing

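Across the 13 settings, 6 to 8 members were called higher and 12 to 14 lower, and 17 of the 20 DE members were called in every setting; the exceptions were ITGA2B, ITGA4 and ITGB8. ITGB8 was not called by limma (-2.60, adjusted p = 0.0703), and ITGA2B neither by limma (adjusted p = 0.0699) nor with RLE scaling (adjusted p = 0.0507). With the replicate block for strain, 7 members were higher and 14 lower (all genes: 3186 and 2826), and ITGA3 was the only member whose call changed. DESeq2 called 2 members between the lines and 2 in the interaction, where edgeR, RLE scaling, limma and the raw count filter called 0. LAMA3 ranged from -0.85 to 0.27 when single libraries were left out, with the sign reversed without the FD2M1 neoSFs (0.27). Leaving out each library gave 5672 to 5920 DE genes. Without an expression filter, the median log2 fold change of all genes was 0.23 in place of 0.08. The lists gave 19 to 21 DE adaptors, 12 to 14 basement membrane partners, 19 to 22 ligands and 4 to 7 tetraspanins and linkers. The passage and strain fits could not leave out a library, since 3 libraries leave no residual spread. Shares of each chain per coding length were not run, since protein lengths were not used here. In the neoSFs, depth limits genes with an NRC near 5.85 or less.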
